A study of Homo sapiens with 12 samples.

Results

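The expression of 8 genes that act in the uptake, binding and activation of fatty acids was examined in human liver spheroid co-cultures exposed to total parenteral nutrition (TPN). The genes were FABP1, SLC27A2, SLC27A4, SLC27A5, ACSL1, ACSL3, ACSL4 and ACSL5, taken by symbol out of the 16705 genes of the expression table. All 8 passed the filter on low expression. The spheroids held C3A cells, a clonal derivative of the HepG2 hepatoma line, and LX-2 cells, an immortalized line of activated hepatic stellate cells, seeded with C3A cells in excess. RNA of pooled spheroids was sequenced in 12 libraries, 3 in each of 4 groups. The groups were untreated spheroids at 24 h, spheroids after 24 h in 1% TPN, untreated spheroids at 144 h and spheroids after 144 h in 1% TPN. TPN stood for a clinical infusion mixture of amino acids, electrolytes, glucose, a lipid emulsion, trace elements and vitamins, so a difference between exposed and untreated spheroids cannot be assigned here to one of its parts. Each cell type came from a single established line, so that the 3 libraries of a group are not 3 donors.

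Long-chain fatty acids enter hepatocytes with the help of membrane proteins, are held in the cytosol by fatty acid-binding proteins, and are made reactive by ligation to coenzyme A. The acyl-CoA synthetases of the ACSL family catalyse this ligation, and the resulting acyl-CoA can be oxidized, built into triglycerides and phospholipids, or used to modify proteins. The proteins of the SLC27 family (fatty acid transport proteins) also carry acyl-CoA synthetase activity, and FABP1 is the abundant liver form of the binding proteins. Several of these genes are known targets of the PPAR nuclear receptors, which bind fatty acids.

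Expression was measured as FPKM, the number of sequenced fragments of a gene scaled by transcript length and by all mapped fragments. As the unit is per length, levels of different genes were set side by side, but how well the scaling holds between genes was not tested. The order of genes with close levels is thus a description of these values. Differences are given as log2 fold changes of FPKM + 0.1 from one limma model of all 12 libraries, with p values adjusted by the Benjamini-Hochberg method over 11713 genes. A gene rose or fell when its adjusted p was below 0.05, and it was called differentially expressed (DEG) when its absolute log2 fold change was also above 0.58. The libraries had an estimated 1.76e+07 to 1.86e+07 fragments each, from only 1 to 10 low FPKM values per library. The correlation between libraries of a group was 0.993 to 0.996. At 1 pooled estimate of 1.81e+07 fragments, the 8 genes rested on between about 194 fragments (the lowest library of SLC27A5) and 10600 fragments (the highest of FABP1). In SLC27A5 and ACSL1, the least covered genes, counting error alone was estimated at 7.2% and 6.3% of the lowest value. The SD within groups was lower, at 1.82% to 5.42% of the mean for SLC27A5 and 2.73% to 5.36% for ACSL1. The fragment numbers are thus rough estimates.

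The cell types named in the labels were checked by their markers. Of 15 hepatocyte markers, 14 were expressed in every group and CYP7A1 averaged below 0.5 FPKM over the 12 libraries. The summed hepatocyte markers ran from 27290 to 28700 FPKM in untreated and from 26000 to 26200 FPKM in exposed spheroids at 24 h. At 144 h they ran from 30790 to 32600 FPKM without TPN and from 26370 to 28340 FPKM with it. Of 15 stellate markers, PDGFRA, DES, LUM and DCN averaged below 0.5 FPKM over the 12 libraries. At 144 h, THY1, COL1A2 and TAGLN were also below 0.5 FPKM in both groups, and COL3A1 was in exposed spheroids (0.13 FPKM). Of the 11 others, 9 fell with time in untreated spheroids, against 52.4% of all genes tested. Among these was COL1A1, at 14.1 to 16.3 FPKM at 24 h and at 1.68 to 2.38 FPKM at 144 h. LOX was higher at 144 h (141.8 to 149.5 FPKM, against 54.6 to 59.1 FPKM at 24 h), and TIMP1 was higher with TPN at 144 h (88.2 to 94.9 FPKM, against 42.5 to 44.9 FPKM). All 15 stellate markers together summed to 259.3 to 272.6, 256.4 to 262.3, 261.5 to 273.3 and 325.2 to 334.0 FPKM in the 4 groups in the order above, and the sums of untreated spheroids overlapped between the times while those with TPN at 144 h were higher. Without LOX and TIMP1, left out after their values were seen, the sums were 137.9 to 145.8, 122.7 to 125.9, 75.8 to 80.7 and 70.5 to 73.1 FPKM. In RNA of whole spheroids, fewer cells of a type and less RNA per cell cannot be told apart.

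The promoters of FABP1 and ACSL5 are shown because these genes had the largest differences with TPN at 144 h among the 8. The stretches lie just upstream of the transcript starts that RefSeq lists in GRCh38.p14 and end before the first annotated exon base. FABP1 has a single listed start and ACSL5 has 2, both inside the interval that the table gives for the gene. Each is read 5′ to 3′ on the strand of the gene, and capitals mark the letters of a motif match.
FABP1, chr2:88128063-88128312, minus strand: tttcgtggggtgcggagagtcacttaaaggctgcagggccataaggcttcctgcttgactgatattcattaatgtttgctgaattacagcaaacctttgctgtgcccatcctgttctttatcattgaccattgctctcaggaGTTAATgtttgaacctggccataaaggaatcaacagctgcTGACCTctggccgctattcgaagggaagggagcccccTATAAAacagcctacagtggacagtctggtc
ACSL5 first start, chr10:112375018-112375234, plus strand: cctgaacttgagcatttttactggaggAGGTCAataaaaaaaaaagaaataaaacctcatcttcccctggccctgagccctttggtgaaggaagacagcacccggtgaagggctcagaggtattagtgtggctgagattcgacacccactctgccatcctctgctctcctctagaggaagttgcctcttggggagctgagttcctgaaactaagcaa
ACSL5 second start, chr10:112375955-112376197, plus strand: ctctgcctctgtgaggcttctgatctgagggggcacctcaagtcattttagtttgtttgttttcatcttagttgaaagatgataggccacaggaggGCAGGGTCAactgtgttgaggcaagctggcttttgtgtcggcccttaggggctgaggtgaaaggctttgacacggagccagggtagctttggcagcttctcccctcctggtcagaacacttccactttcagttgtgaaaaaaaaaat

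The motifs were searched on both strands in all 13 windows of 300 bases that RefSeq gives for the 8 genes, 250 bases before and 50 after a start. They were AGGTCA, the core of nuclear receptor sites, found in 13.8% of the 35116 windows of all genes, and its direct repeat with 1 base between the copies (DR1, the form bound by PPAR), found in 0.0228% of them. The others were TGACNNNGC, the core of the antioxidant response element (13.3%), TATAAA, the TATA box (11.5%), CCAAT (34.6%), GGGCGG, the GC box (45%), and GTTAAT, a motif of liver gene promoters (6.88%). The repeat holds AGGTCA, and the reverse of AGGTCA and TGACNNNGC both begin with TGAC, so matches of these can overlap. FABP1 held GTTAAT from 108 to 103 bases before the start, the reverse of AGGTCA from 68 to 63 bases before it and TATAAA from 31 to 26 bases before it. A further AGGTCA lay just after the FABP1 start. ACSL5 held AGGTCA only at the first start, 223 to 218 bases upstream, and TGACNNNGC only at the second. TGACNNNGC also lay in the SLC27A4 window and at the fifth of the 5 ACSL1 starts, CCAAT in those of ACSL3, SLC27A5 and the fifth ACSL1 start, and TATAAA just after the third ACSL1 start.

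Neither FABP1 nor ACSL5 had a GC box in these windows, and their GC content was 50% and, at the ACSL5 starts, 51% and 50%. ACSL3, ACSL4, SLC27A2, SLC27A4 and the first start of ACSL1 held at least 1 GC box each, with a GC content between 65% and 82.3%, and the fifth start of ACSL1 held 1 at 58%. SLC27A5 had none, with 62.7%. No window of the 8 genes held the direct repeat. A match of letters is a description of the window and not a binding site, and the lack of one says only that these letters are not in it.

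FABP1 (NCBI gene 2168, chr2:88122982-88128062) was the most abundant of the 8 genes, in every library. In the untreated spheroids at 24 h its level was 1298, 1311 and 1216 FPKM, and after 24 h in TPN 1256, 1183 and 1081 FPKM. The ranges overlapped, and the log2 difference of −0.12 (SE 0.052, adjusted p = 0.173) did not pass the test. At 144 h the untreated libraries held 1619, 1501 and 1565 FPKM, and the exposed libraries 2215, 2423 and 2376 FPKM.

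All exposed FABP1 libraries at 144 h lay above all others of the study, with a mean of 2338 ± 109 FPKM against 1562 ± 59.0 FPKM without TPN (SD, n = 3). The log2 fold change at 144 h was 0.582 (SE 0.052, adjusted p = 7.41e-07), a 1.497-fold difference with a 95% interval of 1.38 to 1.62. FABP1 rose with TPN at 144 h under every alternative tried, but its fold change stood at the threshold for a DEG. It fell below 0.58 without untreated 144 h replicate 2 (0.55), TPN 144 h replicate 2 (0.56) or TPN 144 h replicate 3 (0.57), with libraries scaled to the same total (0.57), and with quantile normalization (0.51). Of the 14 hepatocyte markers tested, 2 rose and 8 fell at 144 h, against 24.2% and 28.3% of all genes. The other 4 were not called, and the median log2 fold change of the 14 was −0.20. ALB (albumin), at −0.64 among the larger falls, went from 5709 to 6391 FPKM in untreated to 3674 to 3974 FPKM in exposed spheroids, while the fibrinogen genes FGG (0.39) and FGA (0.23) rose, and the part of hepatocyte content in the FABP1 level was not tested.

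The 3 transport protein genes were expressed at far lower levels than FABP1, and 1 of them changed with TPN. SLC27A2 (gene 11001, chr15:50182196-50236385), which encodes FATP2, a transport protein of liver with very long-chain acyl-CoA synthetase activity, had 17.4, 18.0 and 16.4 FPKM in untreated spheroids at 24 h and 16.4, 17.1 and 16.6 FPKM in exposed ones. At 144 h it had 13.7, 13.3 and 12.8 FPKM without TPN and 10.6, 11.8 and 12.8 FPKM with it. The exposed libraries at 144 h were spread more widely than the untreated ones and touched their lowest value.

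At 144 h SLC27A2 fell by 0.18 on the log2 scale (SE 0.060, adjusted p = 0.0219), to 0.883 of the untreated level (95% interval 0.808 to 0.966). This call was lost without untreated 144 h replicate 1 (log2 fold change −0.16, adjusted p = 0.0727), untreated 144 h replicate 2 (−0.18, adjusted p = 0.0533) or TPN 144 h replicate 1 (−0.11, adjusted p = 0.109). At 24 h the SLC27A2 difference was −0.04 (adjusted p = 0.75).

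SLC27A4 (gene 10999, chr9:128340516-128364373) encodes FATP4, a widely expressed transport protein that sits largely in internal membranes. Its level ran from 18.1 to 18.9 FPKM in untreated and from 19.0 to 21.2 FPKM in exposed spheroids at 24 h, and the log2 difference of 0.14 had an adjusted p of 0.181. At 144 h the ranges were 13.5 to 14.3 and 13.1 to 15.6 FPKM, with a log2 difference of 0.04 and a 95% interval from −0.09 to 0.17. The 2 groups of a time point were thus next to each other at 24 h and overlapped at 144 h.

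SLC27A5 (gene 10998, chr19:58498333-58512028) encodes FATP5, known in liver as bile acyl-CoA synthetase, which activates bile acids. It ran from 7.18 to 7.42 FPKM without and from 6.22 to 6.89 FPKM with TPN at 24 h (log2 difference −0.14, adjusted p = 0.125). At 144 h the SLC27A5 ranges of 5.28 to 5.69 and 5.26 to 5.65 FPKM covered each other, and the log2 difference of 0.01 had an interval from −0.11 to 0.13.

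**Figure D1:**
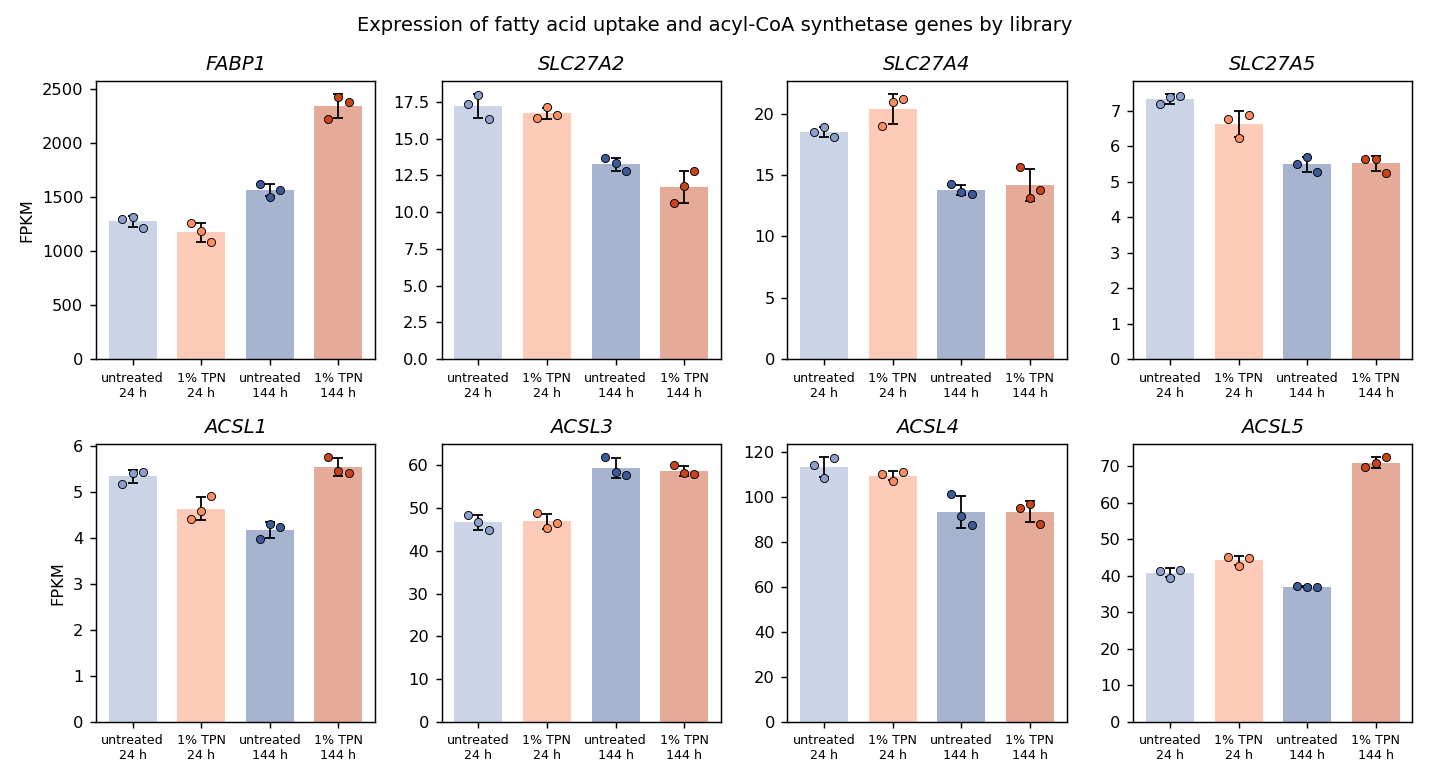
FPKM of the 8 genes (y axis, from 0, one scale per panel) in the 4 groups (x axis). Points are libraries, bars the mean and error bars the SD of 3 libraries. The exposed libraries at 144 h stand above all others for FABP1 (2215 to 2423 FPKM) and ACSL5 (69.7 to 72.6 FPKM).

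Among the synthetases, ACSL5 and ACSL1 responded to TPN, while ACSL3 and ACSL4 did not pass the test at either time. ACSL5 (gene 51703, chr10:112374116-112428376) encodes an enzyme of mitochondria and endoplasmic reticulum that is abundant in intestine and liver. At 24 h its level was 41.4, 39.4 and 41.7 FPKM in untreated and 45.05, 42.81 and 45.01 FPKM in exposed spheroids. At 144 h it was 37.1, 36.9 and 37.0 FPKM in untreated and 69.7, 70.9 and 72.6 FPKM in exposed spheroids. The exposed libraries were the higher ones at both times, without overlap, by a small step at 24 h and a large one at 144 h.

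ACSL5 rose at 144 h from 37.0 ± 0.14 to 71.1 ± 1.44 FPKM (SD, n = 3), a log2 fold change of 0.94 (SE 0.032, adjusted p = 6.95e-11) or 1.92-fold (95% interval 1.83 to 2.01). Across the alternatives the ACSL5 fold change at 144 h lay between 0.92 and 0.97 and stayed past both thresholds. At 24 h the rise was 0.12 on the log2 scale (SE 0.032, adjusted p = 0.0336), or 1.08-fold. The 24 h call was lost without untreated 24 h replicate 1 (adjusted p = 0.0571), untreated 24 h replicate 2 (adjusted p = 0.139), TPN 24 h replicate 1 (adjusted p = 0.119) or TPN 24 h replicate 3 (adjusted p = 0.113), and under 3 other settings.

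ACSL1 (gene 2180, chr4:184743240-184826593), the first described member of the family and the main form in fat tissue and heart, was the least abundant of the 4 synthetases. It had 5.18, 5.41 and 5.45 FPKM in untreated spheroids at 24 h and 4.42, 4.59 and 4.91 FPKM after 24 h in TPN. At 144 h it had 3.98, 4.32 and 4.25 FPKM without TPN and 5.77, 5.46 and 5.41 FPKM with it. The order of the groups turned between the times, with exposed libraries all lower at 24 h and all higher at 144 h.

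ACSL1 rose at 144 h by a log2 fold change of 0.40 (SE 0.060, adjusted p = 8.25e-05), or 1.32-fold with an interval of 1.21 to 1.44. At 24 h it fell by 0.20 on the log2 scale (SE 0.060, adjusted p = 0.0473), to 0.87 of the untreated level. The fall at 24 h was at the edge of the threshold and the call was lost in 14 of 21 alternatives, among them the removal of any 1 of 10 libraries. It held without TPN 24 h replicate 3 (adjusted p = 0.0396) or untreated 144 h replicate 1 (adjusted p = 0.0449), and the adjusted p over all alternatives ran from 0.028 to 0.163. The rise at 144 h was called in all 21.

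ACSL3 (gene 2181, chr2:222861036-222944639) encodes a synthetase of the endoplasmic reticulum and of lipid droplets. Its level ran from 44.98 to 48.44 FPKM in untreated and from 45.38 to 48.77 FPKM in exposed spheroids at 24 h, and from 57.74 to 61.96 and 57.96 to 59.97 FPKM at 144 h. The ranges covered each other at both times. The 95% intervals of the ACSL3 log2 differences reached from −0.08 to 0.09 at 24 h and from −0.10 to 0.07 at 144 h.

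ACSL4 (gene 2182, chrX:109629350-109733325) prefers arachidonic acid and other polyunsaturated fatty acids and is known for its place in ferroptosis. It was the most abundant of the synthetases, with 108.4 to 117.1 FPKM in untreated and 107.0 to 111.1 FPKM in exposed spheroids at 24 h, and with 87.3 to 101.1 and 88.1 to 97.0 FPKM at 144 h. The intervals of the ACSL4 log2 differences reached from −0.16 to 0.06 and from −0.11 to 0.11. These intervals bound the differences of ACSL3 and ACSL4 and do not show that the levels were equal.

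Counted over the 8 genes, 1 rose and 1 fell at 24 h, against 5.04% and 5.46% of all 11713 genes tested. No gene of the 8 was a DEG at 24 h in the limma model, against 0.914% of all genes, and 5 of the 8 had an unadjusted p below 0.05, against 23.9% of all genes. At 144 h 3 rose and 1 fell, against 24.2% and 28.3% of all genes. ACSL5 and FABP1 were DEGs that rose, against 5.75% of all genes, and none of the 8 was a DEG that fell, against 3.73%. The median log2 fold change of the 8 genes was −0.05 at 24 h and 0.02 at 144 h, and that of all genes was 0.00 and −0.02, so the 8 did not move one way as a group.

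The responses at the 2 times were compared directly, by subtracting the log2 fold change of the short exposure from that of the long one. The result uses the same libraries as the contrasts above. The difference was positive for ACSL5 (0.82, SE 0.046, adjusted p = 7.54e-08), FABP1 (0.70, SE 0.074, adjusted p = 1.67e-05) and ACSL1 (0.60, SE 0.084, adjusted p = 1.63e-04). These 3 of 8 genes compare with 14.1% of all genes that were higher by adjusted p, and all 3 were past both thresholds, against 4.2% of all genes.

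The other 5 genes showed no difference between the times that passed the test, with adjusted p from 0.171 for SLC27A5 to 0.806 for ACSL3. The SLC27A2 difference of −0.14 had an adjusted p of 0.239, so its call at 144 h and not at 24 h is no evidence of a different response. ACSL1 fell below 0.58 without TPN 24 h replicate 1, untreated 144 h replicate 1 or TPN 144 h replicate 1, with a lowest value of 0.57, and with quantile normalization and a pseudocount of 1, with a lowest value of 0.51, while its adjusted p stayed at or below 6.74e-04.

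**Figure D2:**
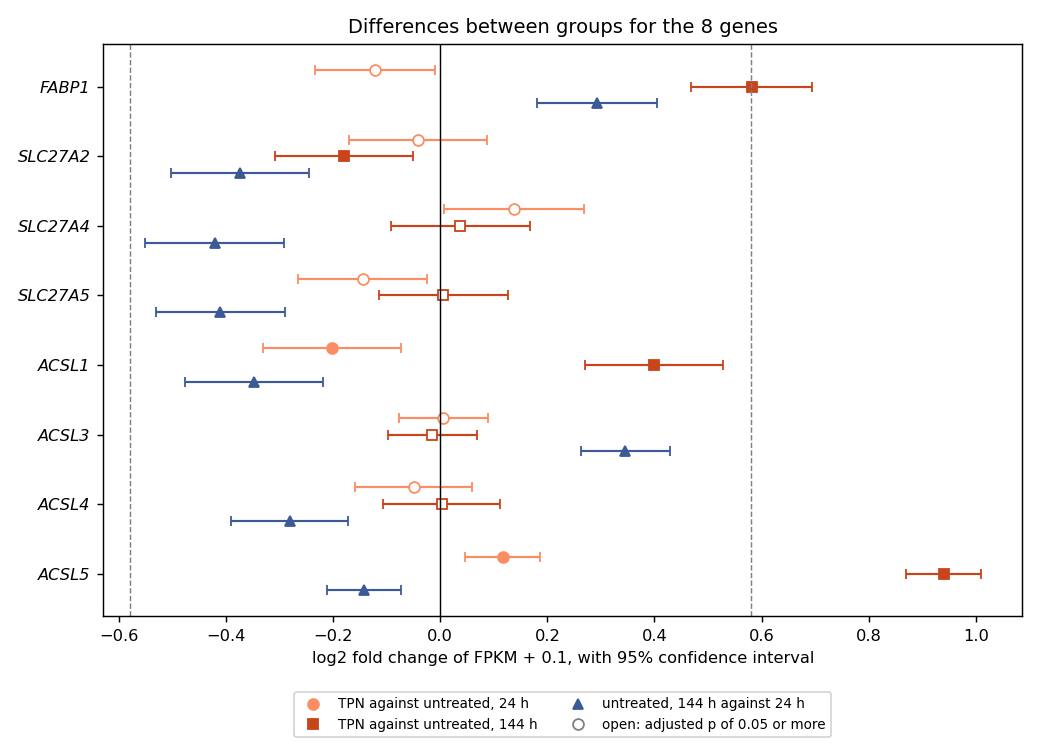
Log2 fold changes (x axis) of the 8 genes (y axis) with 95% confidence intervals from the limma model, for TPN against untreated at 24 h and 144 h and for untreated spheroids at 144 h against 24 h. Filled symbols have an adjusted p below 0.05, and dashed lines mark 0.58 in both directions. ACSL5 at 144 h (0.94) is the only interval beyond the dashed line.

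All 8 genes also changed with time in culture without TPN, in the range of 0.14 to 0.42 on the log2 scale. This contrast shares the untreated libraries with the TPN contrasts. ACSL3 (0.35) and FABP1 (0.29) rose from 24 h to 144 h, which is 2 of 8 genes against 20.1% of all genes. SLC27A4 (−0.42), SLC27A5 (−0.41), SLC27A2 (−0.37), ACSL1 (−0.35), ACSL4 (−0.28) and ACSL5 (−0.14) fell, which is 6 of 8 against 52.4% of all genes. None was a DEG, against 19% of all genes.

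Part of this shift was common to the table. The median of all genes was −0.18 in this contrast, and 72.2% of the calls were lower. Median ratio scaling moves this median near 0 by design (−0.0078), so its share of 50.4% lower calls is no separate evidence. Relative to the median of all genes, ACSL3 was higher by 0.53 and FABP1 by 0.48, SLC27A4, SLC27A5, SLC27A2 and ACSL1 stood at −0.24, −0.23, −0.19 and −0.16, and ACSL4 and ACSL5 stood at −0.10 and 0.04. ACSL5 changed direction with median ratio scaling (0.04, adjusted p = 0.345) and with quantile normalization (0.03, adjusted p = 0.47). With these, ACSL4 lost its call (highest adjusted p = 0.0821), and FABP1 lost it with quantile normalization (0.05, adjusted p = 0.344). Stellate markers moved with time too, as 9 of 11 tested fell, with a median of −1.82, and their part in the changes of the 8 genes was not tested.

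Set beside these changes with time, the differences with TPN at 144 h differed from gene to gene. ACSL1 fell with time in untreated spheroids from 5.35 to 4.18 FPKM, and its level of 5.55 FPKM in exposed spheroids at 144 h was near that of untreated spheroids at 24 h. FABP1 was higher at 144 h in untreated spheroids and higher again in exposed ones. ACSL5 stood at 37.0 FPKM in untreated spheroids at 144 h against 40.9 FPKM at 24 h, so that the 71.1 FPKM of exposed spheroids lay far outside the range of both untreated groups.

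By level, the order was FABP1, ACSL4, ACSL3, ACSL5, SLC27A4, SLC27A2, SLC27A5 and ACSL1 in both groups at 24 h and in untreated spheroids at 144 h. Untreated spheroids at 144 h had SLC27A4 and SLC27A2 in overlapping ranges, and otherwise neighbours in these 3 groups did not overlap. FABP1 had 11.3 times the FPKM of ACSL4 in untreated spheroids at 24 h and 25.0 times in exposed spheroids at 144 h. In the latter, ACSL5 (71.1 FPKM) came before ACSL3 (58.7 FPKM) without overlap. ACSL1 (5.55 FPKM) and SLC27A5 (5.52 FPKM) overlapped there.

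The makeup of the synthetases was described by the share of each in the summed FPKM of ACSL1, ACSL3, ACSL4 and ACSL5. The sum was 193.8 ± 9.27 FPKM in untreated and 228.7 ± 4.10 FPKM in exposed spheroids at 144 h, and 206.1 ± 5.37 and 205.2 ± 4.72 FPKM at 24 h (SD, n = 3). The ACSL5 share was 18.2%, 19.3% and 19.9% in the untreated libraries at 144 h and 30.2%, 30.6% and 32.4% in the exposed ones, a difference of 11.97 percentage points. The ACSL4 share went from 48.1% to 40.8% and the ACSL3 share from 30.6% to 25.7%, while neither of these genes passed the test on its own FPKM.

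At 24 h the ACSL5 share was 19.8% without and 21.6% with TPN, and the groups did not overlap. ACSL1 held 2.60% and 2.26% at 24 h and 2.16% and 2.43% at 144 h. A two-sided exact permutation test of 3 against 3 libraries gave p = 0.1 for each share at both times except ACSL3 at 24 h (p = 0.8). With 20 arrangements this is the smallest p that the design allows, so it cannot pass 0.05.

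**Figure D3:**
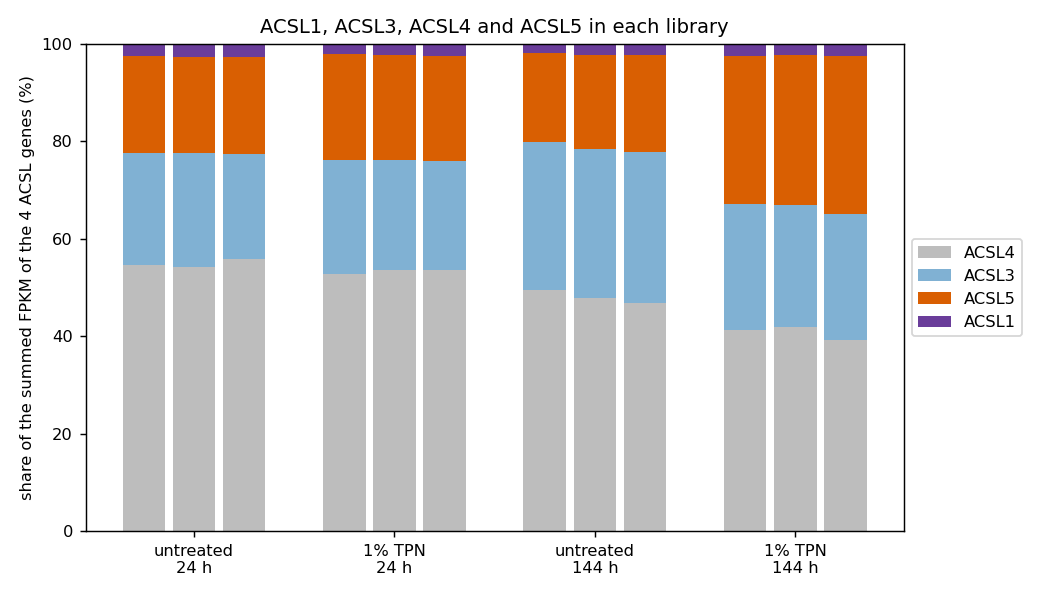
Share (y axis, percent) of ACSL4, ACSL3, ACSL5 and ACSL1 in their summed FPKM in each of the 12 libraries (x axis, 3 bars per group). The ACSL5 share is 30.2% to 32.4% in the exposed libraries at 144 h and 18.2% to 21.7% in all others.

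Over the 12 libraries, the levels of the 8 genes formed patterns that follow the 4 groups, which the libraries share, so the following Pearson correlations of log2(FPKM + 0.1) are descriptions. SLC27A2, SLC27A4, SLC27A5 and ACSL4 varied together (r from 0.80 to 0.92 between pairs), and ACSL3 varied against them (r from −0.91 to −0.83). FABP1 varied with ACSL3 (r = 0.80) and ACSL5 (r = 0.78) and against SLC27A2 (r = −0.88), SLC27A4 (r = −0.80), SLC27A5 (r = −0.74) and ACSL4 (r = −0.73). ACSL1 had its highest r with ACSL5 (0.67), followed by FABP1 (0.34).

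Among all other genes tested, the 2 most like ACSL5 over the 12 libraries were CDKN1A (r = 0.991), a cell cycle inhibitor, and UGT1A1 (r = 0.990), the bilirubin glucuronosyltransferase. Those most like FABP1 were RAB22A (r = 0.992) and CLDN12 (r = 0.991), and those most like ACSL1 were H6PD (r = 0.924) and CEMIP (r = 0.923). ACSL3 was most like PDK1 (r = 0.988), a kinase of pyruvate dehydrogenase, and LNPK (r = 0.987), and ACSL4 most like RANBP2 and EIF2AK2 (both r = 0.970). For the transporters these were SMIM7 (r = 0.990) and DNAJC14 (r = 0.989) for SLC27A2, NAA35 (r = 0.981) and TAF5L (r = 0.978) for SLC27A4, and FRMD6 (r = 0.981) and XPNPEP3 (r = 0.979) for SLC27A5.

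The KEGG annotation in the table placed all 8 genes in the PPAR signaling pathway, which counts 69 genes there. The 4 synthetases shared fatty acid degradation (39 genes), fatty acid biosynthesis (17 genes) and ferroptosis (39 genes). With SLC27A2 they were also the 5 genes listed under peroxisome (80 genes). SLC27A5 alone of the 8 was listed under primary bile acid biosynthesis (16 genes).

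Other genes of fatty acid handling were taken from lists by function, with the same test. The counts at 144 h stand beside 24.2% of all genes that rose and 28.3% that fell, and those at 24 h beside 5.04% and 5.46%. Of 14 other uptake and binding genes, 1 rose and 6 fell at 144 h. CD36, the scavenger receptor that takes up fatty acids, rose from 2.99 to 5.02 FPKM (log2 fold change 0.73, adjusted p = 2.80e-06), and SLC27A3 fell (−0.55). Of 10 other acyl-CoA synthetases 1 rose and 3 fell, among them ACSM2B (−0.68), a medium-chain synthetase, and ACSS2 (−0.53), the cytosolic acetyl-CoA synthetase. Of 8 acyl-CoA thioesterases, which undo the reaction of the ACSL enzymes, 1 rose (ACOT9, 0.32) and 3 fell (ACOT1, −0.38).

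Genes that use the acyl-CoA moved in both directions. Of 22 genes of mitochondrial oxidation 9 rose and 5 fell at 144 h, with CPT1A, the gate of acyl groups into mitochondria, at 0.42 at 24 h and 0.96 at 144 h (adjusted p = 1.00e-04 and 3.40e-09). HADH (−0.64) and ACAD9 (−0.60) fell at 144 h. Of 15 peroxisomal genes 3 rose and 4 fell, among them EHHADH (−0.32) and CRAT (−0.31). Of 19 acylation genes 10 rose and 8 fell. GPAT3, which starts glycerolipid synthesis from acyl-CoA, rose by 1.12 at 24 h and 2.02 at 144 h (adjusted p = 7.40e-08 and 3.51e-11), while SOAT2 (−1.04), which esterifies cholesterol, and DGAT2 (−0.60), which makes triglycerides, fell at 144 h. Of 17 transcription factors of these pathways 2 rose and 10 fell, with NR1H4 (−0.81), FOXA1 (−0.80) and CEBPA (−0.77) DEGs at 144 h.

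**Figure D4:**
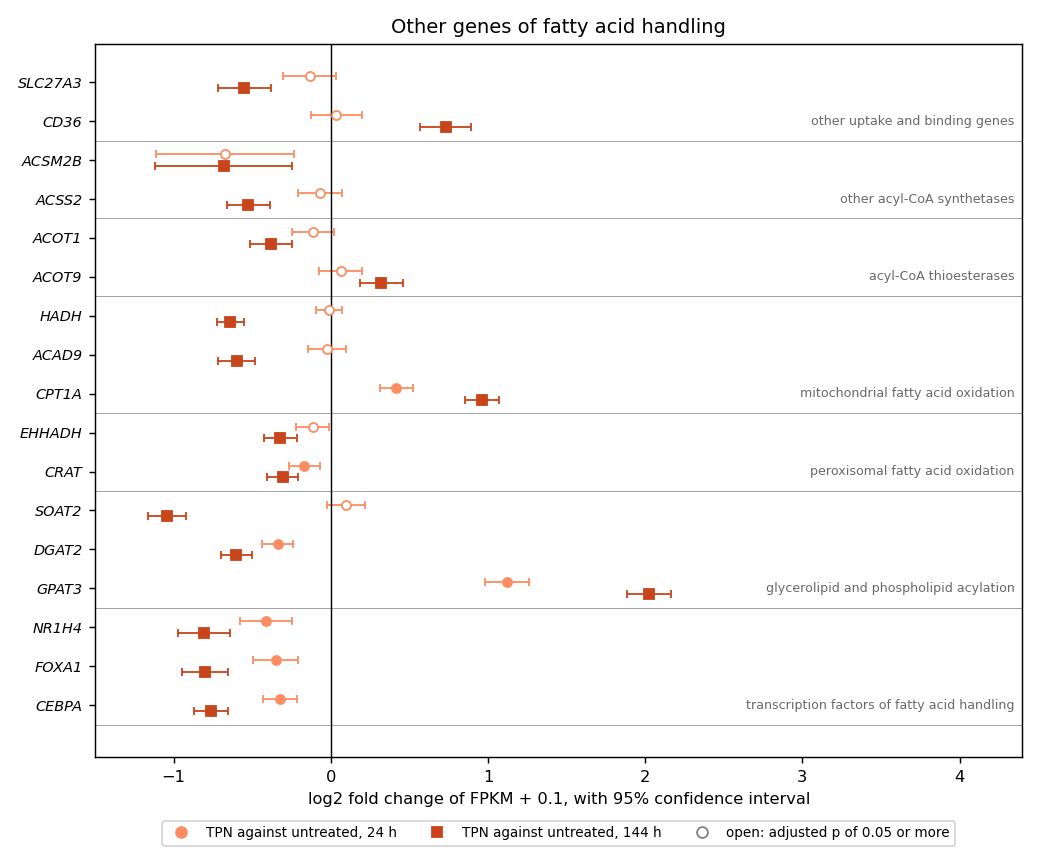
Log2 fold changes with TPN (x axis) at 24 h and 144 h of the named genes of the 7 lists of fatty acid handling (y axis), cell type markers not included, with 95% confidence intervals from the limma model. Filled symbols have an adjusted p below 0.05. GPAT3 is farthest to the right at both times (1.12 and 2.02), and SOAT2 is farthest to the left of the genes plotted at 144 h (−1.04).

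At 24 h, 1 gene fell and none rose in each of the following lists separately. These were the 14 uptake and binding genes, the 10 other synthetases, the 8 thioesterases and the 15 peroxisomal genes. Of the 22 mitochondrial genes 1 rose and 1 fell, of the 19 acylation genes 2 rose and 4 fell, and of the 17 transcription factors none rose and 4 fell. The median log2 fold changes at 144 h were −0.08 for uptake and binding, −0.05 for other synthetases, 0.02 for thioesterases, 0.03 for mitochondrial oxidation, 0.04 for peroxisomal oxidation, 0.16 for acylation and −0.12 for transcription factors, beside −0.02 for all genes. ACSL5 (0.94) was close to CPT1A (0.96) in size at 144 h, and FABP1 (0.58) lay between ACSL1 (0.40) and CD36 (0.73). Markers of the cell types moved at 144 h as well. Of 14 hepatocyte markers 2 rose and 8 fell with TPN, with ALB at −0.64, AFP at −0.69 and TF at −0.59. Of 11 stellate markers 2 rose (TIMP1 at 1.06, LOX at 0.18) and 5 fell. The falls were COL3A1 (−1.40), COL1A1 (−1.25), VIM and COL1A2 (both −1.07) and PDGFRB (−0.40). ACTA2 (47.9 FPKM untreated, 45.4 FPKM exposed), SPARC (20.8 and 21.7 FPKM), TAGLN and THY1 were not called. COL1A1 had means of 1.92 and 0.75 FPKM, and VIM of 2.44 and 1.08 FPKM. COL1A2 and COL3A1 were at very low values there. COL1A2 had 0.33, 0.28 and 0.21 FPKM in untreated and 0.15, 0.12 and 0.0 FPKM in exposed libraries. COL3A1 had 0.6, 0.35 and 0.56 FPKM in untreated and 0.15, 0.15 and 0.08 FPKM in exposed libraries. The part of the cell type markers in the results of the 8 genes was not tested.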

How the data were processed

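RNA sequencing of 12 libraries of C3A and LX-2 spheroids was used as deposited. The authors filtered the reads, aligned them to GRCh38.p13 with HISAT2 2.0.4, mapped them to transcripts with Bowtie2 2.2.5 and calculated with RSEM the FPKM values used here, 1 column per library. Their differential expression used DESeq2, which takes counts, and counts were not used here, so limma 3.58.1 (R 4.3.3, lmFit, eBayes with trend) was fitted to log2(FPKM + 0.1) of 11713 genes, those whose FPKM averaged 0.5 or more over all libraries. The table held 20 rows without a gene and 0 value columns outside the 12 libraries. Depth was estimated from the steps of FPKM values in 37 short genes. All 8 genes are named, and from each list the DEGs with TPN and the 2 largest changes at 144 h. FGA, FGB, FGG, LOX, PDGFRB, ACTA2, SPARC, TAGLN and THY1 were named after their values were seen. The genes and lists were chosen with earlier results of these data known. The study states 3 independent experiments for its RNA sequencing, but the labels do not tie a library to one. The p values rest on the spread between these samples, and the technical part of that spread is not known. As alternatives, pseudocounts of 1 and 0.01, no filter or an average FPKM of 5 or more, 3 other scalings, a fit of the compared groups alone, no trend and a replicate block were tried, and each library was left out. The procedure was tested on simulated data. Sequences came from RefSeq (GRCh38.p14). Tables and figures were made with Python 3.11.15, numpy 2.4.6, pandas 2.3.3 and matplotlib 3.10.9.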

Additional observations from a re-analysis of the deposited data

Results flagged for a closer look

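Results are listed here when the log2 fold change with TPN at 144 h differed from that at 24 h in the test of the difference itself (limma, adjusted p below 0.05). Of the 8 genes these were ACSL5 (0.82), FABP1 (0.70) and ACSL1 (0.60), each more positive at 144 h.

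The other genes of fatty acid handling were named by their changes with TPN, which enter this difference. In the whole lists, 1 of 14 uptake and binding genes was positive and 3 were negative. For the 10 other synthetases these counts were 1 and 1, for the 8 thioesterases 1 and 2. They were 10 and 5 of 22 mitochondrial, 4 and 1 of 15 peroxisomal and 7 and 4 of 19 acylation genes. For the 17 transcription factors they were 1 and 8. All stand beside 14.1% and 16.3% of all genes. Among the named genes, the difference was positive for GPAT3 (0.90), CD36 (0.70), CPT1A (0.54) and ACOT9 (0.26). It was negative for SOAT2 (−1.14), HADH (−0.63), ACAD9 (−0.57), ACSS2 (−0.46), FOXA1 (−0.45), CEBPA (−0.44), SLC27A3 (−0.42), NR1H4 (−0.40), ACOT1 (−0.27), DGAT2 (−0.26) and EHHADH (−0.20). Of the 11 stellate markers tested, 2 were positive and 4 negative, among them TIMP1 (1.00), COL1A1 (−1.25), COL3A1 (−1.22) and VIM (−0.83). COL3A1 was at very low values at 144 h. Of the 14 hepatocyte markers, 4 were negative, among them AFP (−0.55), ALB (−0.45) and TF (−0.40), and 3 were positive, the fibrinogen genes FGG (0.72), FGB (0.63) and FGA (0.61), against 16.3% and 14.1% of all genes. The fibrinogen genes are named after their values were seen.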

How the results depend on the processing

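The count of the 8 genes called at 24 h went from 2 to 1 without a filter, with a mean FPKM of at least 5 (which leaves out ACSL1), without the trend or with the replicate block, and to 0 with libraries scaled to the same total or with only the groups compared. Leaving out 1 library gave 0 to 2. The count of DEGs at 144 h went from 2 to 1 with the same total or quantile normalization, and was 1 to 2 with 1 library left out. With time in untreated spheroids, 8 calls became 5 with quantile normalization, and ACSL5 turned from −0.14 to 0.0355 with median ratio scaling and 0.0263 with quantile normalization. Signs turned for differences near 0 that passed no test. With the same total these were ACSL3 at 24 h (−0.0036), ACSL4 (−0.0115) and SLC27A5 (−0.0083) at 144 h, and SLC27A5 with quantile normalization (−0.019). With 1 library left out, the ranges crossing 0 were −0.0229 to 0.0326 (ACSL3, 24 h), −0.0345 to 0.0163 (ACSL3, 144 h), −0.0435 to 0.0622 (ACSL4), −0.0341 to 0.0923 (SLC27A4), −0.0218 to 0.0392 (SLC27A5), −0.0476 to 0.0104 (ACSL3, difference) and, for the ACSL3 share at 24 h, −0.4028 to 0.5184 points. Of the 692 combinations of gene, contrast and alternative, 644 kept their direction and side of the threshold, 29 lost their call (27 with the same sign and the 2 of ACSL5 above), 18 turned in sign without a call in either fit, and FABP1 at 24 h gained one with quantile normalization (adjusted p = 0.0442). Causes were not tested.

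Same-numbered libraries of a time point had r from −0.08 to 0.10 between their deviations, with 1 of 6 pairs above 0.1. Over all groups, 5 of 18 same-numbered pairs (highest r = 0.15) and 2 of 36 others (highest r = 0.11) were above it. As not every pair passed 0.1, the numbers were not taken to pair the libraries. With the replicate block ACSL1 at 24 h had an adjusted p of 0.0619 and 1 gene was called, and no other call of the 8 genes changed. Over all genes, DEGs went from 107 to 58 and 59 at 24 h, from 1110 to 698 and 523 at 144 h and from 687 to 435 and 282 for the difference with a pseudocount of 1 and a mean FPKM of at least 5, and from 2230 to 1337 with the latter for time. By the rough estimate of depth, ACSL1 and SLC27A5 rest on the fewest fragments of the 8 genes, 194 to 361.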
